A study of Homo sapiens with 6 samples.

Results

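The zinc finger genes of human chromosome 19 were followed in HCT116 cells, an established colorectal carcinoma line, that overexpressed SETD8 or carried an empty vector. SETD8, whose gene is now called KMT5A, is the methyltransferase that places the single methyl group on lysine 20 of histone H4, and the title of the series concerns its action on the coactivator YAP. The genes were all those that GENCODE release 29 lists as protein-coding on chromosome 19 under a name of ZNF followed only by digits. They numbered 240 of the 58735 genes in the deposited count table. The SETD8 group held 3 libraries of cells that received a SETD8 overexpression plasmid, and the vector group held 3 libraries of cells of wild-type label that received the empty plasmid. Both groups share HCT116 cells, a lentiviral vector, and selection of stable clones with puromycin, although the design text speaks of transfection. The number of clones, the promoter of the construct and whether replicates were separate cultures are not stated, and the spread behind every p-value is that between these 3 libraries a group, which may be technical.

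Most chromosome 19 zinc finger proteins belong to the KRAB family. Their C-terminal arrays of C2H2 fingers read DNA, often within transposable elements, and the N-terminal KRAB domain recruits the corepressor TRIM28. TRIM28 in turn brings the H3K9 methyltransferase SETDB1 and HP1 proteins, which silence the bound locus. The genes arose by repeated tandem duplication and lie in clusters, and the clusters themselves carry H3K9me3 and H4K20me3 over many of their finger-coding exons. Promoter methylation of single members, such as ZNF582, ZNF331 and ZNF382, is a familiar feature of carcinomas.

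Library totals were 17056672 to 18785454 counts in SETD8 libraries and 17187722 to 20471843 counts in vector libraries. KMT5A had 69.0 ± 5.63 counts per 1000000 (CPM, scaled by trimmed mean of M values, TMM) in SETD8 and 49.1 ± 4.27 CPM in vector libraries (SD, n = 3 each), a log2 difference of 0.49 (SE 0.10) with an edgeR adjusted p = 0.0156. KMT5A lost its call without SETD8 replicate 1 (0.53, adjusted p = 0.0661), 2 (0.52, 0.0579) or 3 (0.42, 0.0949) and without vector replicate 2 (0.48, 0.0965), while the difference kept its direction. On the leading principal component of all tested genes, SETD8 libraries stood at -23.8 to -16.5, vector replicates 2 and 3 at 25.7 and 39.3, and vector replicate 1 between the groups at -0.94. Mitochondrial transcripts took 4.91% to 5.36% of the counts in SETD8 libraries and 5.95% to 7.77% in vector libraries, and their part in the results below was not tested. The epithelial markers reached at least 1 CPM in 6 of 7 genes, with sums of 8000 to 8917 CPM in SETD8 and 8043 to 9953 CPM in vector libraries. Immune markers reached 1 CPM in 0 of 5 genes (sums of 0.318 to 0.466 CPM in SETD8 and 0.288 to 0.948 CPM in vector libraries), endothelial in 1 of 4 (1.11 to 1.80 CPM in SETD8 and 1.20 to 2.25 CPM in vector libraries) and fibroblast in 1 of 5 (3.28 to 4.65 CPM in SETD8 and 4.69 to 6.45 CPM in vector libraries). PTPRC, CD3E, KDR, COL1A2 and DCN had 0 counts. Markers of HEK293, a line used to package lentivirus, reached 1 CPM in 2 of 4 genes (7.76 to 8.05 CPM in SETD8 and 5.72 to 8.18 CPM in vector libraries).

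The level of chromosome 19 ZNF genes ran from silence to 102 TPM (transcripts per 1000000, computed from the counts and the exon length of each gene). Of the 240 genes, 140 had enough counts to be tested, 32 had between 1 and 56 counts in all libraries together, and 68 had 0 counts in each of the 6 libraries. A count of 0 allows a level of up to 0.150 to 0.174 CPM in a library, the value of 3 counts, and this limit covers counting error only. Tested genes made up 58.3% of the chromosome 19 ZNF genes, against 82.6% of the 235 ZNF genes of the same naming rule on other chromosomes and 62.2% of the other 1232 protein-coding genes of chromosome 19. Genes with 0 counts were 28.3%, 11.9% and 17.5% of these sets. The tested genes were low, with a median of 5.84 CPM against 20.2 CPM over all 14370 tested genes. Per exon length, their median level was 3.42 TPM, 27 of them reached 10 TPM, and 20 lay under 1 TPM.

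Promoters of 5 genes are shown because they cover a wide range of levels and of CpG content, from the highest gene to silent ones. Each is the RefSeq sequence on GRCh38.p14 from 250 bases before to 50 bases after the gene's start, read 5′ to 3′ on the gene's strand, with CpG dinucleotides in capitals. ZNF787 had the highest level per length, ZNF8 the smallest p of the comparison, ZNF541 the most and ZNF556 the fewest CpG among genes with 0 counts, and ZNF582, also at 0, is methylated in many carcinomas.
ZNF787: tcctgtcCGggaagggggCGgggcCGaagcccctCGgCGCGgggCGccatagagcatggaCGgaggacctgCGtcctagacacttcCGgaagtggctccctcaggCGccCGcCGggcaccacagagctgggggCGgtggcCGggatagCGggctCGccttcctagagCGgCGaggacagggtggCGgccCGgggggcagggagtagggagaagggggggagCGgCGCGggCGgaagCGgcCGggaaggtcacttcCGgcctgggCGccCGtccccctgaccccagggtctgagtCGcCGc
ZNF8: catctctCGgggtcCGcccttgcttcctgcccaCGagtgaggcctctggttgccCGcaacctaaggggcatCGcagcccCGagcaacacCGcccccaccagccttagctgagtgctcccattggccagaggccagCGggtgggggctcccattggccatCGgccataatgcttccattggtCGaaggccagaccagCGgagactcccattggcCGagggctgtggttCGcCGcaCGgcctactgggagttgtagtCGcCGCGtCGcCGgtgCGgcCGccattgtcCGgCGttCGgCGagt
ZNF541: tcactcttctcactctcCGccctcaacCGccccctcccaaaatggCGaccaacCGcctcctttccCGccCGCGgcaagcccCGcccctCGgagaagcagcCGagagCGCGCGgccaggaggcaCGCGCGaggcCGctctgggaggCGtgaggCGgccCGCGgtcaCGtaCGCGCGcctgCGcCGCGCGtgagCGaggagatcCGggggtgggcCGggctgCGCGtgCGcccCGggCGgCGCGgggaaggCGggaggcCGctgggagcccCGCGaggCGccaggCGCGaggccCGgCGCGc
ZNF556: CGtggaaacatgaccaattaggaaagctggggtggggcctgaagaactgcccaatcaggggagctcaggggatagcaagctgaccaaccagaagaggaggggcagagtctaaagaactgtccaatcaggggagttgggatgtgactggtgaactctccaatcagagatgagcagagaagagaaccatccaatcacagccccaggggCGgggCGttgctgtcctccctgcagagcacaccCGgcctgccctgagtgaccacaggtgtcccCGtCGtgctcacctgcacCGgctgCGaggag
ZNF582: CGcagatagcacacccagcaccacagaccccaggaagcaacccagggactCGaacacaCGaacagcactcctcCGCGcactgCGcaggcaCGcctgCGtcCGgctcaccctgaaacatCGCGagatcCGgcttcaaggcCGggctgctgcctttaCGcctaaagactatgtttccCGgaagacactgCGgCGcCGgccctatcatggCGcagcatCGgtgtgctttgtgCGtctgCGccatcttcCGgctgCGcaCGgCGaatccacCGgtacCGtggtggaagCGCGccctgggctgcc

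The promoter of ZNF787 (chr19:56121246-56121545, minus strand) held 32 CpG and that of ZNF8 (chr19:58278705-58279004, plus strand) held 26. The promoters of the silent genes ZNF541 (chr19:47573099-47573398, minus strand), ZNF582 (chr19:56393485-56393784, minus strand) and ZNF556 (chr19:2867085-2867384, plus strand) held 49, 30 and 8. The RefSeq start of ZNF541 lies upstream of its GENCODE 29 gene (47520685 to 47555856). A CpG-rich start stood at silent genes as well as at active ones. Over the 209 genes with a promoter in the RefSeq table, the median was 20 CpG, against 14 over all 35116 promoters of that table, of which 96.0% held at least 1 CpG, a motif that reads the same on both strands. Tested genes had a median of 22 CpG (quartiles 16.25 and 26.75, n = 126) and genes with 0 counts a median of 17 (quartiles 13 and 25.25, n = 56), so the classes overlapped widely. DNA methylation was not measured here.

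Active and silent genes were not spread evenly along the chromosome. Starts more than 1 Mb apart were taken to separate clusters, which gave 16 clusters, numbered from the end of the short arm, and 9 of them held at least 5 genes and 231 genes in all. Cluster 5, from ZNF101 to ZNF254 (19.7 to 24.1 Mb of GRCh38, next to the centromere), had 13 of 37 genes tested and 20 with 0 counts. Its silent genes included a run of 11 neighbours, from ZNF43 to ZNF730 (21.8 to 23.1 Mb). ZNF91, the primate-specific repressor of SVA retrotransposons, lay beyond that run and had 4.71, 5.69 and 4.71 CPM in SETD8 libraries and 4.80, 3.54 and 4.72 CPM in vector libraries. The groups overlapped at ZNF91, with a log2 fold change of 0.21 (95% interval -0.23 to 0.65, edgeR adjusted p = 0.536).

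**Figure D1:**
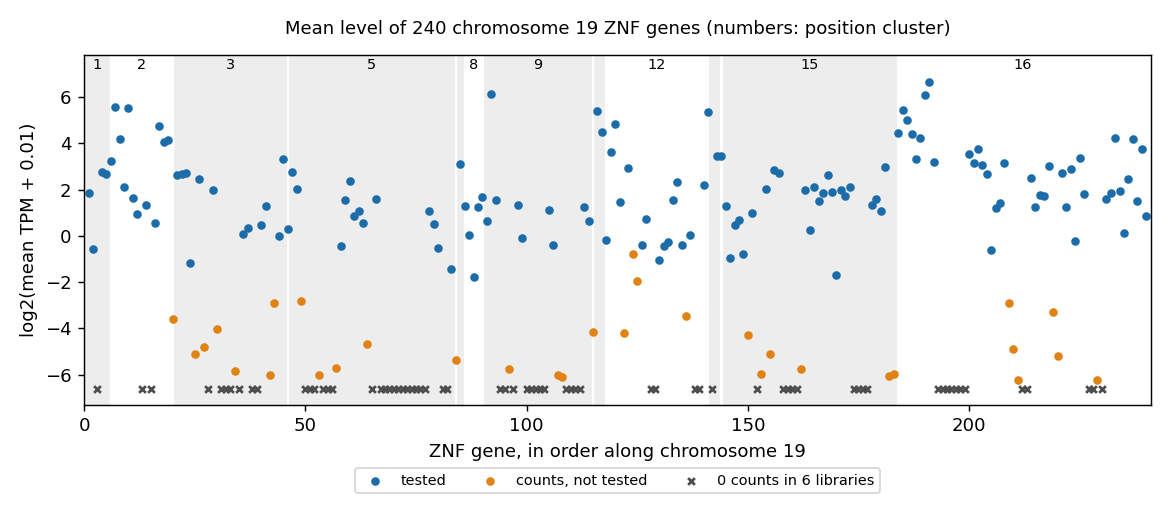
Mean level over the 6 libraries, as log2(TPM + 0.01), for each of the 240 genes in their order along chromosome 19; shading separates position clusters, and those with at least 5 genes are numbered. Blue points are the 140 tested genes, orange points the 32 with counts too low to test, and crosses the 68 genes with 0 counts, which form a run of 11 in cluster 5.

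Cluster 9, from ZNF565 to ZNF573 (36.2 to 37.8 Mb), had 9 of 24 genes tested, among them a highly expressed one. ZNF146, which encodes a protein made almost only of fingers and is amplified or overexpressed in several carcinomas, had 117, 98.8 and 82.0 CPM in SETD8 libraries and 87.4, 86.9 and 95.7 CPM in vector libraries. It was the second highest of all the genes per length, with 74.7 ± 13.2 TPM in SETD8 and 66.8 ± 6.72 TPM in vector libraries (SD, n = 3 each). Of the other 23 genes of the cluster 8 were tested, and 12 had 0 counts, among them ZNF568 and ZNF345. ZNF382, a KRAB repressor described as a methylated tumour suppressor, had 3 counts over all 6 libraries. Cluster 3, from ZNF653 to ZNF791 (11.5 to 12.6 Mb), had 12 of 25 genes tested and 7 at 0 counts.

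The remaining large clusters were more active. Cluster 2, from ZNF557 to ZNF846 (7.07 to 9.79 Mb), had 12 of 15 genes tested, and cluster 12, from ZNF575 to ZNF296 (43.5 to 45.1 Mb), 16 of 24. Cluster 15, from ZNF175 to ZNF331 (51.6 to 53.6 Mb), had 24 of 39 genes tested, 11 of them in an unbroken run from ZNF808 to ZNF160. Cluster 16, from ZNF628 to ZNF446 (55.5 to 58.5 Mb), had 39 of 57. The small clusters 1 and 8 had 4 of 5 and 5 of 5. In clusters 15 and 16, ZNF582, ZNF583, ZNF677 and ZNF347 had 0 counts, and ZNF331 and ZNF671 had 2 counts each. Methylation in carcinomas has been described for these genes as for ZNF132 of cluster 16, which had 1.45 to 5.47 CPM. They were picked after their values were seen and stand for no list.

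**Figure D2:**
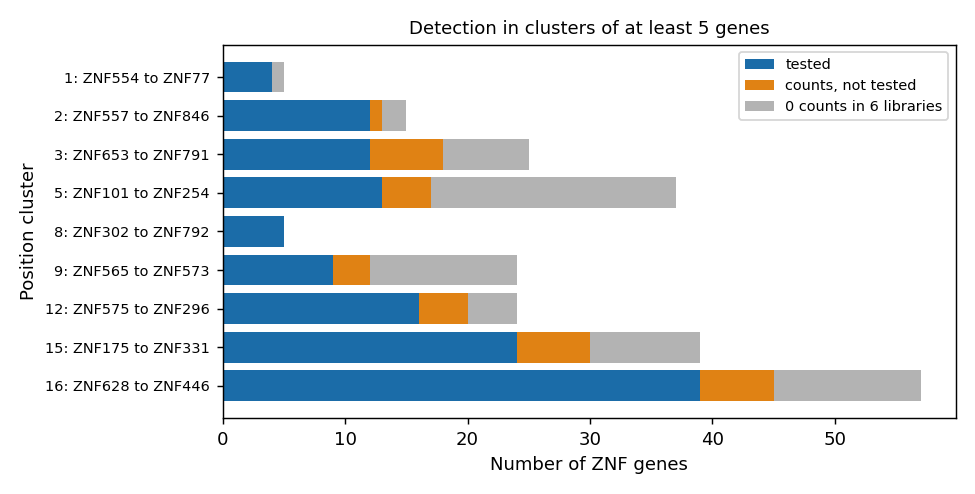
Number of genes tested (blue), with counts too low to test (orange) and with 0 counts in all 6 libraries (grey) in each position cluster of at least 5 genes. Cluster 5 has the largest grey part, 20 of 37 genes, and cluster 8 has none.

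Of the 5 highest genes per length, 4 matched no KRAB pattern. ZNF787 averaged 107 ± 4.40 TPM in SETD8 and 96.4 ± 6.96 TPM in vector libraries (SD, n = 3 each), and ZNF146 followed. ZNF581 averaged 75.5 ± 3.76 TPM in SETD8 and 61.0 ± 3.10 TPM in vector libraries, and its groups did not overlap in CPM (log2 fold change 0.28, 95% interval 0.05 to 0.51, edgeR adjusted p = 0.114). ZNF358 averaged 45.7 ± 3.54 TPM in SETD8 and 48.4 ± 3.79 TPM in vector libraries, and ZNF317, the one with a KRAB match, 45.1 ± 1.08 TPM in SETD8 and 46.8 ± 3.88 TPM in vector libraries. ZNF358 and ZNF317 did not differ beyond their spread. A KRAB A box, searched as a tryptophan followed by leucine, glutamine, leucine, valine-methionine and glutamate at fixed spacing, was found in proteins of 172 of the 240 genes. Of these 172 genes 52.3% were tested and 55 had 0 counts, against 73.5% of the 68 genes without a match, of which 13 had 0 counts. Among tested genes, those with a match had a median of 13 finger patterns and 2.98 TPM, and those without had 9.5 and 7.06 TPM. Only 2 of the 24 genes in cluster 12 matched, but 19 did when the tryptophan was left out of the pattern, a choice made after seeing the data. With that wider pattern 189 genes matched, of which 52.9% were tested, against 78.4% of the other 51.

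SETD8 overexpression left no chromosome 19 ZNF gene past the test. Of the 140 tested genes, 0 rose and 0 fell (edgeR quasi-likelihood test, Benjamini-Hochberg adjustment over all 14370 genes tested), where 7.83% of all tested genes were called, 3.08% as higher and 4.75% as lower. At an unadjusted p under 0.05, 13 genes stood out, 6 higher and 7 lower, or 9.29% against 26.0% of all tested genes. DESeq2 called 3 genes, against 11.5% of all genes, and limma-voom called 0, against 7.59%. The groups did not overlap in 17 genes, 9 with SETD8 above and 8 with SETD8 below, or 12.1% against 30.3% of all tested genes. The share of calls depended on level in the whole table, with 4.14% of genes under 10 CPM and 9.94% of the others called. Of the ZNF genes, 94 lay under 10 CPM and 46 at or above it.

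The sizes of the differences were small and centred on 0. The median log2 fold change of the 140 genes was -0.01 (quartiles -0.19 and 0.15), beside 0.00047 (quartiles -0.20 and 0.20) for all tested genes, -0.02 for the 194 tested ZNF genes of other chromosomes and 0.02 for the 766 other tested protein-coding genes of chromosome 19. Signs were split, with 67 above and 73 below 0. With a KRAB match, 35 genes lay above and 55 below 0 (median -0.06), and without one 32 above and 18 below (0.07). Without vector replicate 3 these medians were 0.03 and 0.07. With the pattern that leaves out the tryptophan, 44 lay above and 56 below 0 with a match, and 23 and 17 without. The KRAB classes were not tested against each other. Point estimates reached 1.5-fold in 6 of the 140 genes (4.29%) and 2-fold in 0, against 1501 (10.4%) and 382 of all 14370 tested genes. Among the 194 tested ZNF genes of other chromosomes, 9 (4.64%) reached 1.5-fold and 0 reached 2-fold. A p that misses the threshold does not show that the levels were equal, and the 95% intervals give what the data allow. They lay wholly within 2-fold in either direction for 123 of the 140 genes and wholly within 1.5-fold for 61. Of all 14370 tested genes, 11577 had intervals within 2-fold and 7912 within 1.5-fold. Of the other ZNF genes, 5 of 194 (2.58%) were called, and of the other chromosome 19 genes 72 of 766 (9.40%). The difference between these shares was not tested.

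**Figure D3:**
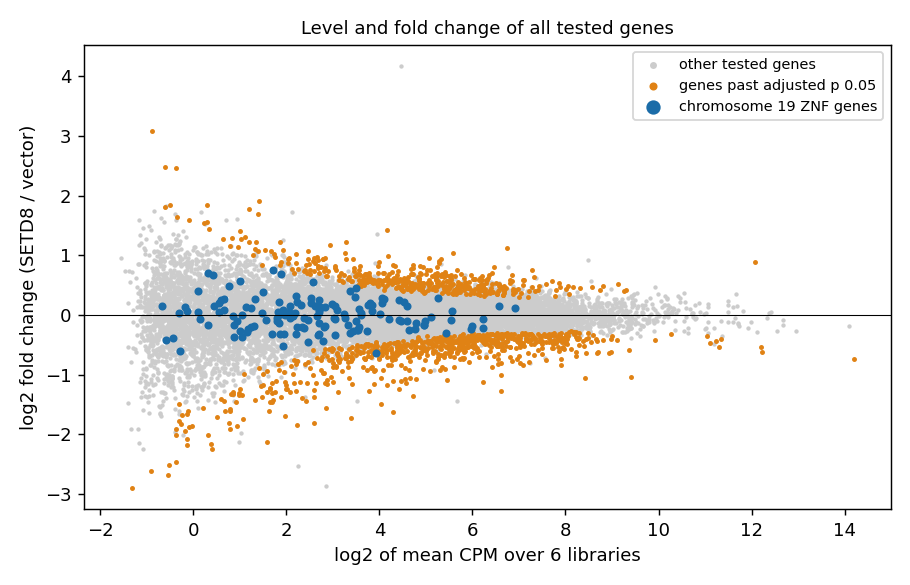
Log2 fold change (SETD8 over vector) against log2 of the mean CPM over 6 libraries for all 14370 tested genes, with genes past an adjusted p of 0.05 in orange, the others in grey and the 140 chromosome 19 ZNF genes in blue. The blue points lie between -0.64 and 0.76, and none is past the threshold.

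In total, the ZNF genes took about the same share of each library. They held 0.176%, 0.171% and 0.165% of the counts in SETD8 libraries and 0.161%, 0.165% and 0.181% in vector libraries, so the groups overlapped. Their summed level was 1682 ± 59.2 CPM in SETD8 and 1714 ± 68.5 CPM in vector libraries (SD, n = 3 each). At least 1 CPM was reached by 131 to 132 genes in SETD8 libraries and by 130 to 132 in vector libraries. In bulk RNA, fewer cells that express a gene and less RNA per cell cannot be told apart.

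The genes nearest to a call lay at the far end of the long arm. ZNF8 (ENSG00000278129, 58278951 to 58302805, plus strand), a KRAB gene with 7 finger patterns, had 12.8, 13.0 and 13.4 CPM in SETD8 libraries, against 9.38, 9.08 and 10.1 CPM in vector libraries. All SETD8 values lay above all vector values, and the log2 fold change was 0.45 (95% interval 0.17 to 0.74, SE 0.13), with an edgeR adjusted p = 0.0523. ZNF8 passed with library totals (adjusted p = 0.0393, where 9.03% of all genes were called), GC correction (0.0402, 9.92%), length correction (0.0171, 8.27%), a filter of 1 CPM in every library of a group (0.0492, 9.24%), DESeq2 (0.0458) and without vector replicate 1 (0.0408). Of the 75-base windows in its transcripts, 19.4% also stood in transcripts of another gene, nearly all of them in AC020915.1, a gene that overlaps it on the same strand, so its count is uncertain. Its neighbour ZNF544 (58228594 to 58277495), whose groups did not overlap either, had 36.9, 40.2 and 37.7 CPM in SETD8 and 47.4, 45.3 and 49.6 CPM in vector libraries. ZNF544 differed by -0.31 on the log2 scale (SE 0.10), with an edgeR adjusted p = 0.0622, and was called by DESeq2 (adjusted p = 0.0475). Neighbours thus stood on opposite sides of 0.

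The other large positive differences among genes with a mean of at least 2 CPM were in genes at 3.27 to 10.3 CPM. Differences in genes below that cut included log2 fold changes of 0.71 in cluster 12, 0.56 in cluster 9 (ZNF565) and -0.61 in cluster 15. ZNF132, a KRAB gene reported as methylated in carcinomas, had 3.34, 3.52 and 5.47 CPM in SETD8 libraries and 3.54, 1.45 and 2.30 CPM in vector libraries, and the groups overlapped through vector replicate 1. Its log2 fold change was 0.76 (SE 0.32, edgeR adjusted p = 0.155), with 0.50 without SETD8 replicate 3 (adjusted p = 0.460), 0.49 without vector replicate 2 (0.414) and 1.13 without vector replicate 1 (0.0120). ZNF837 had 4.29, 4.97 and 4.30 CPM in SETD8 and 3.22, 3.09 and 2.13 CPM in vector libraries. The groups did not overlap at ZNF837 (log2 fold change 0.68, SE 0.23, edgeR adjusted p = 0.0849). In cluster 9, ZNF383, which encodes a KRAB protein with 11 finger patterns, had 7.36, 7.35 and 6.40 CPM in SETD8 and 4.03, 4.74 and 5.65 CPM in vector libraries. All SETD8 values of ZNF383 were higher, and its log2 fold change was 0.55 (SE 0.19, edgeR adjusted p = 0.0851). ZNF383 passed with length correction (adjusted p = 0.0365). ZNF480, in cluster 15, had 12.8, 11.8 and 10.8 CPM in SETD8 and 10.1, 8.28 and 8.30 CPM in vector libraries (log2 fold change 0.40, SE 0.15, edgeR adjusted p = 0.107).

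**Figure D4:**
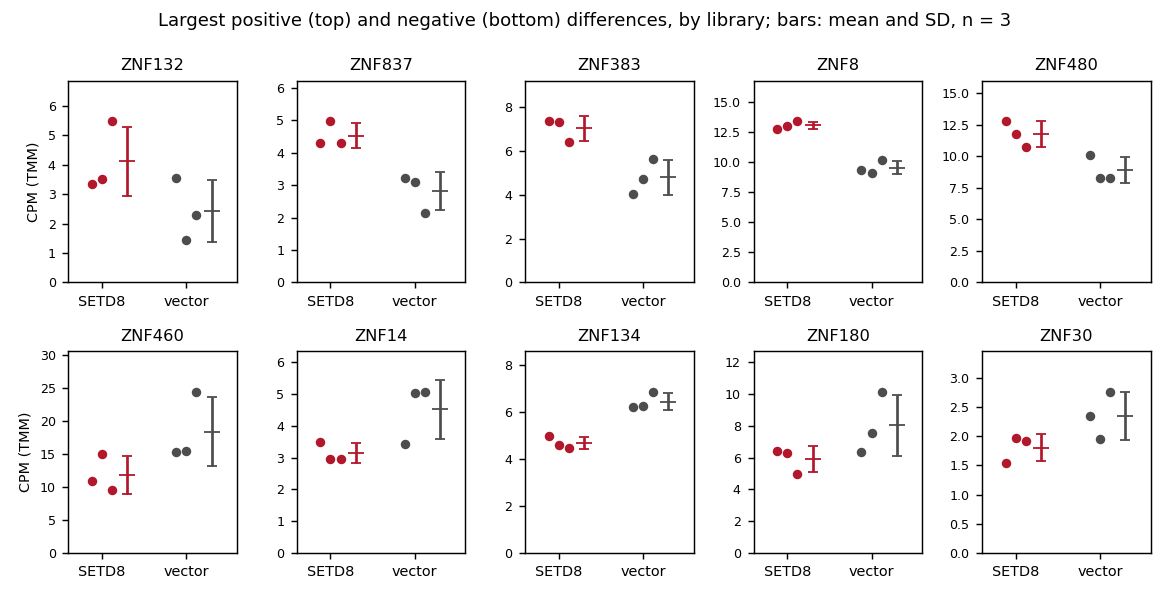
CPM in each SETD8 (red) and vector (grey) library for the 5 genes with the largest positive (top row) and the 5 with the largest negative (bottom row) log2 fold change among tested genes with a mean of at least 2 CPM; bars are the mean and SD of 3 libraries. The groups separate at ZNF837, ZNF383, ZNF8, ZNF480, ZNF460 and ZNF134 and overlap at the other 4, and none of the 10 genes passed the adjusted threshold.

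The largest negative difference was in ZNF460, a KRAB gene of cluster 16. It had 10.9, 15.01 and 9.60 CPM in SETD8 libraries and 15.4, 15.5 and 24.5 CPM in vector libraries. SETD8 replicate 2 came close to vector replicates 1 and 2, and the groups did not overlap. The log2 fold change of ZNF460 was -0.64 (SE 0.20, edgeR adjusted p = 0.0718), and it passed in DESeq2 (adjusted p = 0.0255), with no low-count filter (0.00112, where 7.29% of all genes were called) and without vector replicate 1 (0.00895). Without vector replicate 3, the library at 24.5 CPM, the log2 fold change was -0.38 (edgeR adjusted p = 0.189), and leaving out any other single library gave -0.85 to -0.51. ZNF134, also in cluster 16, had 4.98, 4.61 and 4.48 CPM in SETD8 and 6.21, 6.24 and 6.86 CPM in vector libraries (log2 fold change -0.46, SE 0.17, edgeR adjusted p = 0.121). For ZNF14 of cluster 5, values of 3.50, 2.95 and 2.97 CPM in SETD8 overlapped those of 3.43, 5.04 and 5.07 CPM in vector libraries (-0.52, edgeR adjusted p = 0.168). ZNF180 of cluster 12 (-0.44, edgeR adjusted p = 0.187) and ZNF30 of cluster 8 (-0.38, edgeR adjusted p = 0.424) overlapped too, and each stood at -0.24 without vector replicate 3. Without vector replicate 1, where 23.8% of all genes were called, ZNF180 stood at -0.58 (edgeR adjusted p = 0.0362). In that fit ZNF14 stood at -0.69 (0.0367) and ZNF30 at -0.38 (0.444).

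By position, the median log2 fold change of each cluster with at least 5 tested genes lay between -0.12 and 0.17. Cluster 12 had the highest median of the clusters with at least 5 tested genes, 0.17, with 13 of 16 genes above 0, and its summed level was 108, 104 and 109 CPM in SETD8 against 100.0, 101 and 100.5 CPM in vector libraries. The groups did not overlap in that sum, but such separation was not particular to cluster 12. In cluster 11, with 2 genes, the sum separated in the other direction. It was 92.1, 89.0 and 85.2 CPM in SETD8 against 108, 97.1 and 95.7 CPM in vector libraries. Cluster 14, which holds ZNF473 alone, separated with SETD8 above. The most abundant gene of cluster 12 was ZNF296, a KRAB-less gene known from embryonic cells of the mouse. ZNF296 had 23.1, 25.9 and 25.4 CPM in SETD8 and 22.2, 21.9 and 19.9 CPM in vector libraries (log2 fold change 0.22, edgeR adjusted p = 0.236). Cluster 12 members such as ZNF224, ZNF225 and ZNF230 had 1 to 2 CPM, and genes measured in the same libraries are not replicates of each other. Over the alternatives the cluster 12 median was 0.13 to 0.21, and it is given as a description with no test.

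Cluster 9 followed with a median of 0.14 and 7 of 9 genes above 0. Its sum was 148, 130 and 109 CPM in SETD8 and 112, 112 and 125 CPM in vector libraries, which overlap, and ZNF146 made up most of it. The median was 0.085 without SETD8 replicate 1, 0.092 without SETD8 replicate 2 and 0.26 without SETD8 replicate 3. Without vector replicates 1, 2 and 3 it was 0.12, 0.0999 and 0.28. The short-arm clusters 2, 3 and 5 had medians of -0.07, -0.12 and -0.07, with 3 of 12, 3 of 12 and 5 of 13 genes above 0. The cluster 3 median was -0.03 without SETD8 replicate 3, closer to 0 than that of cluster 2 (-0.06) in the same fit, and -0.17 without vector replicate 1. The cluster 2 median was -0.12 without SETD8 replicate 1. Cluster 2 summed to 334, 313 and 329 CPM in SETD8 and 334, 352 and 382 CPM in vector libraries. The cluster 5 median was -0.16 without vector replicate 1 and turned to 0.06 without SETD8 replicate 2 and to 0.04 without vector replicate 3. Clusters 15 and 16 had medians of 0.02 and -0.0047, with 13 of 24 and 19 of 39 genes above 0. Leaving out single libraries moved the cluster 15 median between -0.07 (without SETD8 replicate 1) and 0.12 (without vector replicate 3), and that of cluster 16 between -0.07 (without vector replicate 1) and 0.05 (without vector replicate 3), so the sign turned in both. The most abundant genes of the other clusters, ZNF57, ZNF791, ZNF101, ZNF792 and ZNF761, had log2 fold changes of -0.21, -0.09, 0.06, -0.02 and 0.03 (edgeR adjusted p = 0.511 to 0.960).

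**Figure D5:**
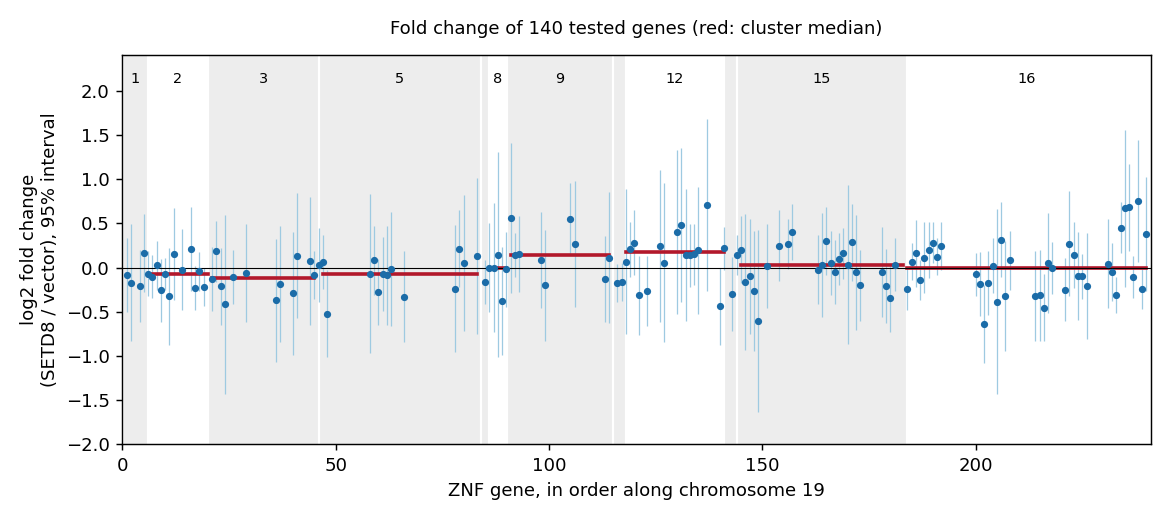
Log2 fold change (SETD8 over vector) with its 95% interval for the 140 tested genes in their order along chromosome 19; red lines are medians of clusters with at least 5 tested genes, and shading separates clusters. With all libraries, medians run from -0.12 in cluster 3 to 0.17 in cluster 12, and intervals widen in genes of low count.

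A few further genes are given for what they are known to do; they were picked after their values were seen and stand for no group. ZNF274, which brings SETDB1 to the finger-coding ends of other ZNF genes, had 9.90, 10.2 and 8.26 CPM in SETD8 libraries and 8.83, 10.8 and 9.80 CPM in vector libraries (log2 fold change -0.05, 95% interval -0.38 to 0.28, edgeR adjusted p = 0.865). ZNF473, which takes part in 3′-end processing of histone messengers, had 25.9, 24.3 and 25.9 CPM in SETD8 and 21.7, 23.4 and 23.9 CPM in vector libraries. Its groups did not overlap, with a log2 fold change of 0.14 (95% interval -0.09 to 0.37, edgeR adjusted p = 0.425). The paralogs ZNF587 and ZNF417, which bind HERV-K elements, had log2 fold changes of -0.10 and -0.21 (edgeR adjusted p = 0.631 and 0.669). They shared 14.1% and 30.3% of their 75-base windows with other genes, so the split between them is uncertain.

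A list of KRAB silencing and related chromatin genes, termed machinery genes here, had 34 tested genes, of which 1 rose and 3 fell. The list also holds genes of DNA methylation and chromatin assembly, such as DNMT1, UHRF1 and CHAF1A, and the demethylase genes KDM4A, KDM4B and KDM4C. The share called was 11.8%, against 7.83% of all genes. It was 9.94% among all genes with a mean of 10 CPM or more, where most of the list lay. TRIM28, the corepressor itself, which lies on chromosome 19 beyond the last ZNF cluster, had 840, 805 and 825 CPM in SETD8 libraries and 849, 848 and 718 CPM in vector libraries (log2 fold change 0.03, 95% interval -0.17 to 0.23, edgeR adjusted p = 0.861). SETDB1 had 30.4 ± 3.72 CPM in SETD8 and 29.5 ± 1.13 CPM in vector libraries (SD, n = 3 each), a log2 difference of 0.04 (95% interval -0.20 to 0.29, edgeR adjusted p = 0.841). MORC2, an ATPase that works with the HUSH silencing complex, rose, with 40.5, 39.0 and 38.4 CPM in SETD8 and 28.3, 24.4 and 20.7 CPM in vector libraries (log2 fold change 0.68, SE 0.12, edgeR adjusted p = 0.00848). CBX5, which encodes HP1 alpha, fell, with 92.4, 86.5 and 94.5 CPM in SETD8 and 108, 125 and 135 CPM in vector libraries (-0.43, SE 0.10, edgeR adjusted p = 0.0206). UHRF1, which guides maintenance of DNA methylation, fell, with 118, 142 and 158 CPM in SETD8 and 181, 189 and 184 CPM in vector libraries (-0.41, SE 0.10, edgeR adjusted p = 0.0301). DNMT1, the maintenance methyltransferase gene, fell too, with 210, 204 and 226 CPM in SETD8 and 251, 273 and 265 CPM in vector libraries (-0.30, SE 0.08, edgeR adjusted p = 0.0440). The groups did not overlap at these 4 genes. All 4 lost their calls without vector replicate 2, and also when any 1 of the SETD8 replicates was left out, where the edgeR adjusted p = 0.0502 to 0.193. In those fits the log2 fold change of MORC2 was 0.66 to 0.70, that of CBX5 -0.46 to -0.39, that of UHRF1 -0.51 to -0.30 and that of DNMT1 -0.34 to -0.26. With length correction the differences themselves were smaller, -0.24 for CBX5 (adjusted p = 0.0765) and -0.17 for DNMT1 (0.191). DNMT1 also lost its call with library totals (-0.26, adjusted p = 0.0627) and with the replicate block, where the difference was still -0.30 (0.0642).

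Leaving out vector replicate 1, the library between the groups, gave 6 higher and 7 lower ZNF genes among 141 tested, where 23.8% of all genes were then called. The higher genes were ZNF132, ZNF428, ZNF581, ZNF480, ZNF837 and ZNF8. The lower genes were ZNF460, ZNF121 (-0.33, adjusted p = 0.0196), ZNF114, ZNF562, ZNF544, ZNF180 and ZNF14. The median of the ZNF genes was then -0.07. Leaving out any other single library gave 0 called ZNF genes. The share of all genes called in those fits is not given here. Of those fits, KMT5A kept its call only in the one without vector replicate 3. This count of 0 therefore cannot be read as a result about the ZNF genes. When names with a letter after the digits and ZFP genes were added, 1 of 149 tested genes was called, ZNF780B, with 2.22, 2.38 and 3.08 CPM in SETD8 and 4.14, 4.39 and 5.07 CPM in vector libraries (log2 fold change -0.82, SE 0.23, edgeR adjusted p = 0.0452).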

How the data were processed

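Poly(A)-selected RNA of 6 HCT116 libraries was sequenced after TruSeq stranded preparation, per the labels' protocols. The values deposited by the authors are whole read counts by Ensembl gene ID, without normalization. Builds GRCh38 and hg38 and the tools STAR, HISAT2, HTSeq and featureCounts stand in the submitters' processing notes; their roles, the strand setting and the treatment of multiply matching reads: not given in the sources used here. Columns named NC were taken as the vector group, the only group other than SETD8. All 58735 IDs matched GENCODE 29 (GRCh38), which gave positions, exon lengths, GC content of the longest transcript, and translated coding sequences for finger and KRAB patterns. Exons of 77 of the 240 genes overlapped another gene on the same strand and 76 on the opposite strand, and 35 shared at least 10% of their 75-base windows with another gene, so those counts are uncertain.

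Genes were filtered with filterByExpr (14370 kept), scaled by TMM and compared by the two-sided quasi-likelihood test of edgeR 4.0.16 with robust fitting (limma 3.58.1, DESeq2 1.42.0 and R 4.3.3 were also used). P-values were adjusted by Benjamini-Hochberg across the 14370 genes, and calls are at 0.05. The SE is the log2 fold change divided by the square root of F, and intervals use the degrees of freedom of that test. The code was tested on simulated data. The genes, lists and cluster rule were chosen with earlier results of these data known. Named genes were the 5 largest positive and 5 largest negative differences with a mean of at least 2 CPM, the 5 highest per length, the highest of each cluster of at least 5, TRIM28, SETDB1 and called machinery genes; others are marked or named as nearest to a call. Alternatives were other scalings, filters, tests, GC and length corrections (lowess, span 0.3), a replicate block, leaving out each library, a wider naming rule and a 0.5 Mb cluster gap.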

Additional observations from a re-analysis of the deposited data

How the results depend on the processing

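The count of called ZNF genes, 0 higher and 0 lower, became 1 higher with GC correction, library totals or a minimum of 1 CPM in every library of 1 group, 2 higher with length correction, 1 higher and 2 lower in DESeq2, 1 lower with no low-count filter and 1 lower with the wider naming rule. It stayed at 0 and 0 with limma-voom, DESeq2-type size factors and the replicate block. Leaving out single libraries gave 0 to 6 higher and 0 to 7 lower, and 0 to 8 called machinery genes against 4. The 8 was reached without vector replicate 1, where 23.8% of all genes were called, against 7.83% with all libraries. The 0 came without vector replicate 2 or any SETD8 replicate. For the other single-library fits, DESeq2-type size factors and the replicate block, the share of all genes is not given. These counts are therefore no result about the ZNF or machinery genes. The median log2 fold change of the ZNF genes ran from -0.074 to 0.052 over all these alternatives. Deviations of same-numbered libraries from their group means were nearly uncorrelated (r = 0.025, 0.0078 and -0.064), as were those of differently numbered ones (-0.095 to 0.092). With 3 libraries a group, these correlations cannot settle whether the libraries were prepared in pairs. The replicate block gave a median of -0.010 and 3 machinery genes. The 0.5 Mb gap gave 20 clusters against 16. The causes were not tested. Low counts limit the precision: the median half-width of the 95% interval was 0.42 on the log2 scale for the ZNF genes, against 0.29 for all genes.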
